A study of Schizosaccharomyces pombe with 3 samples.

Results

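The mug and meu genes of the fission yeast Schizosaccharomyces pombe carry the names of screens for transcripts that are more abundant in meiosis, meu standing for meiotic expression upregulated and mug for meiotically upregulated gene. A gene belonged to this group when its symbol in the platform annotation began with mug or meu followed by a number, and mug14 was left out. These were 133 genes, 114 mug and 19 meu, of 4981 features on the array (4999 probe sets, of which those of a shared gene were averaged). All 133 were found in the gene table of assembly ASM294v3, where 26 have another primary name today, given in brackets below. A probe set shared by meu1-1 and meu1-2, which are merged in that table, was not counted, and it read 5.84, 6.66 and 6.76. Here and below, values in threes are those of wild type, the eca39 deletion culture and the adapted deletion culture, in this order.

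Total RNA of 3 cultures was measured on 3 Affymetrix arrays. Wild type was the h- prototroph SpHT219 and was started from a YE plate. The deletion culture was strain SpHT257-1, also h-, in which kanMX4 replaces eca39, whose product is the aminotransferase of branched-chain amino acids, and it too was started from a YE plate. The adapted culture was that deletion strain after growth beside wild-type cells on EMM2-N with 15 mM glutamate and 2 mM each of isoleucine, leucine and valine, so that adaptation and the last plate cannot be told apart. All 3 then grew in liquid YE, a rich medium, with 2 mM of each branched-chain amino acid and were harvested near an optical density of 1, having started near 0.1. With 1 culture a group no difference below has a replicate check or a p-value, and in RNA from whole cultures a change in few cells and a small change in all cells cannot be told apart.

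Fission yeast enters meiosis when it lacks nitrogen and cells of opposite mating type, h+ and h-, have fused. The transcription factor Ste11 turns on mating genes and mei2, the RNA-binding protein Mei2 starts meiosis, and the forkhead factor Mei4 drives the later wave that leads to spores. In growing cells, the RNA-binding protein Mmi1 sends many meiotic transcripts to destruction by the nuclear exosome. Haploid h- cells in rich medium thus neither mate with each other nor enter meiosis, and genes found in the screens are of different kinds: some act in meiosis alone, and others serve growing cells and become more abundant in meiosis.

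Most mug and meu genes gave a low reading in all 3 cultures. On the log2 scale of the table the 30th percentile of all values was 9.82, and it served as the brightness limit. It was reached on at least 1 array by 41 of 133 genes, or 30.8%, against 73% of all features. On the single arrays it was reached by 37, 38 and 38 genes, or 27.8%, 28.6% and 28.6%, against 69%, 70.3% and 71.1% of all features. The number of mug and meu genes above the limit was thus nearly equal in the 3 cultures. At the other end, 62 of the 133 genes, or 46.6%, stayed below the 10th percentile of the table, 7.92, on all 3 arrays, against 8.85% of all features. The median readings of the group were 7.78, 7.98 and 8.04, against 10.64, 10.69 and 10.69 for all features.

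A smaller share of the meu than of the mug genes was bright, a difference that was not tested. Of 19 meu genes 3 reached the limit (15.8%) against 38 of 114 mug genes (33.3%), and their median readings in wild type were 6.20 and 7.98. The 3 were meu18, meu29 and meu34. The signal of a probe set depends on its probes as well as on its transcript, so a place on the scale does not rank the genes by transcript number. The 3 dimmest readings in wild type belonged to mug96 (3.57), mug116 (3.79) and mug55 (now fzr3, a gene of the family that activates the anaphase-promoting complex, 4.03).

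**Figure D1:**
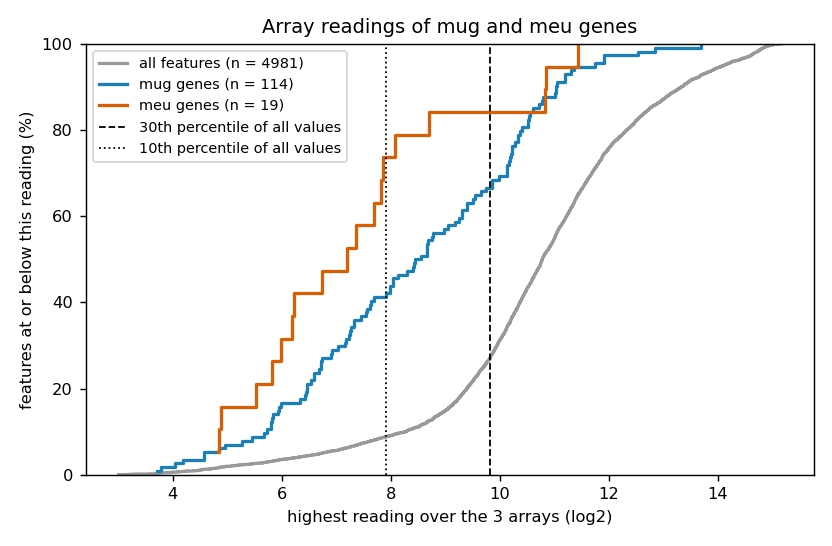
Cumulative share of features (%) against their highest reading over the 3 arrays (log2) for all 4981 features, the 114 mug genes and the 19 meu genes, with the 10th and 30th percentile of all values as vertical lines. The curves of the mug and meu genes lie to the left of that of all features, and at the 30th percentile 38 mug and 3 meu genes remain to the right.

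Of 8 genes listed for roles in meiosis, spore formation or transport, 7 belong to the group, and all 7 stayed below the 10th percentile of the table on every array. Their readings ran from 4.19 to 7.36, and those of meu10, meu14 and mug20 are given further on. The spore membrane kinase gene mug27 read 4.19 on each array, and median polish can return such identical values. Meu13, whose product works with Dmc1 in pairing and recombination of homologous chromosomes, read 4.75, 4.83 and 4.75. Mug28, a gene of an RNA-binding protein of spore membrane formation, read 4.83, 4.69 and 5.27, and the permease gene meu22 read 5.84, 6.18 and 5.84. In all, 9 of 133 genes (6.77%) had the same value on all 3 arrays, against 5.84% of all features.

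Some genes at the limit have known tasks in growing cells, and the examples after the first 5 were chosen for their roles with their values in view. The highest wild-type readings of the group were those of mug64 (13.56), mug69 (now snd2, for targeting of proteins to the endoplasmic reticulum, 12.54), mug134 (now igo1, the endosulfine that inhibits the phosphatase PP2A, 12.42), mug71 (now dph6, an enzyme of diphthamide synthesis, 11.81) and mug33 (a membrane protein with a role in exocytosis, 11.80). Further genes above the limit on every array were mug81 (now rqt2, a helicase of ribosome quality control), mug186 (now snx41, a sorting nexin), mug80 (now clg1, a cyclin), mug164 (now mmb1, which ties mitochondria to microtubules), mug154 (now nur1, a protein of the nuclear rim) and mug179 (now atg1802, of the Atg18 family of autophagy). These 6 read 10.37, 10.30, 10.33, 10.71, 10.05 and 9.83 in wild type, and none of the 6 differed between any pair of arrays by more than 0.213, the gap of mug154. A changed name does not ensure a bright reading, since the 26 renamed genes lay on both sides of the limit. Among those below, the autophagy gene mug66 (now atg101) read 7.03, 7.56 and 7.62 and the histone chaperone gene mug183 (now rtt106) read 9.53, 9.54 and 9.54. Dimmer still in wild type were mug1 (now jnm1, 5.48), mug82 (now pth4, 6.66) and mug136 (now otg2, 6.88).

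The 41 genes hardly moved between cultures. The gap between a gene's highest and lowest array had a median of 0.20 on the log2 scale, against 0.18 for all features at the limit, and it was under 0.5 for 36 of the 41 (87.8%) against 89.8% of all features at the limit. The largest gap was 1.05, that of mug158. A total of 35 of the 41 genes were at the limit on all 3 arrays, and 6 only on some. Of the 3635 features at the limit on any array, 3347 were there on all 3 and 288 only on some. Those 6 were mug94, mug109, mug110, mug158, mug170 and mug191, of which mug170 (highest 9.85) and mug110 (highest 9.86) lay just inside. Just outside were mug143 (highest 9.76) and mug122 (9.65 on each array).

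**Figure D2:**
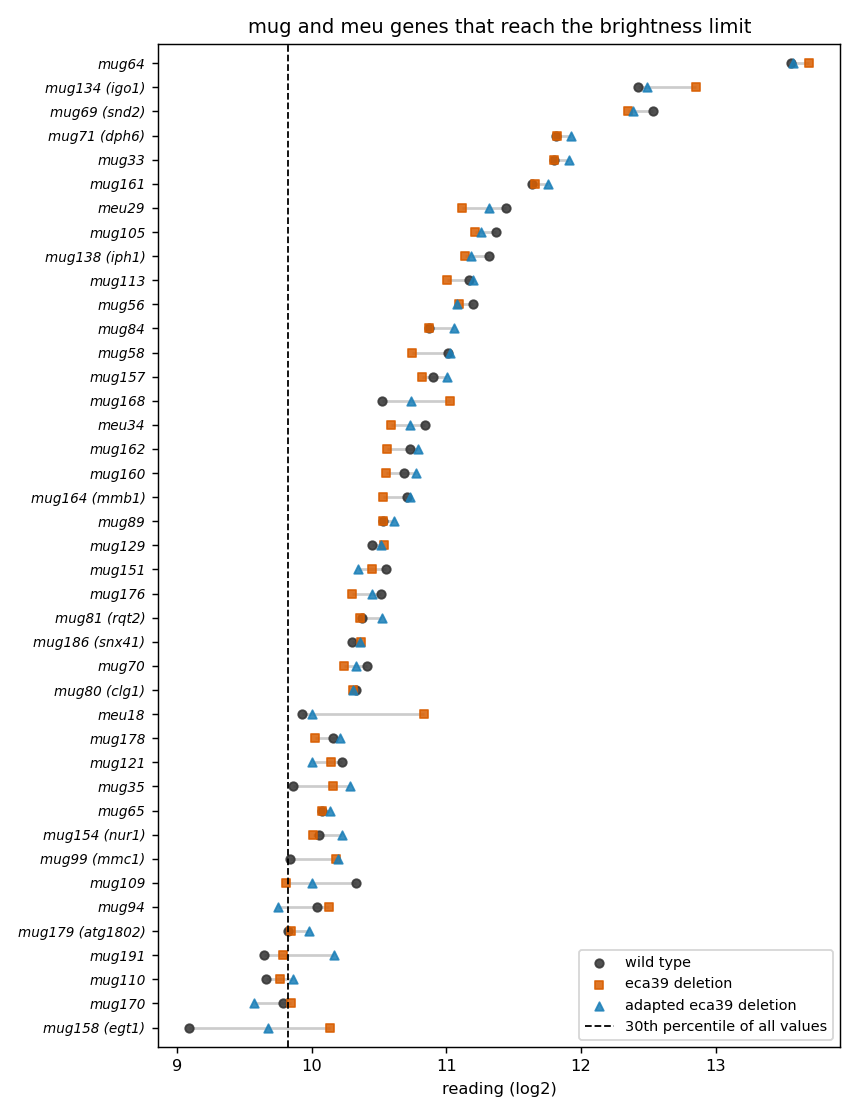
Readings (log2) of the 41 mug and meu genes that reach the 30th percentile of all values, shown by the dashed line, on at least 1 array, with 1 point for each culture and a grey line from the lowest to the highest. The points of mug158 and meu18 are the farthest apart, with the deletion culture on the right in both.

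A rise or fall between 2 cultures was called at a log2 difference of 1 or more, which is 2-fold, provided that the higher of the 2 readings reached the brightness limit. Between the deletion culture and wild type, mug158 was the only gene of the group to pass. It is now named egt1 (SPBC1604.01) and encodes the first enzyme in the synthesis of ergothioneine, a sulfur-containing antioxidant derived from histidine. Mug158 read 9.09, 10.14 and 9.68, so that the deletion array alone was above the limit. It rose in the deletion culture by a log2 difference of 1.05, whose size is uncertain because the wild-type reading lay below the limit. Of the 39 genes of the group at the limit on either array 1 rose and none fell, against 2.3% and 0.0841% of 3569 features. The count is thus near the background, and the call itself is close to its threshold. It was lost under repeated quantile normalization of the 3 arrays, where the difference was 0.93, and with the limit at the 50th percentile. Its measured neighbours on the chromosome did not pass, ppr1 reading 10.66, 10.47 and 10.60 and dpm3 12.71, 12.49 and 12.73.

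The next gene, meu18 (SPBC409.11), lay just outside the 2-fold threshold. It read 9.93, 10.84 and 10.004, so that only the deletion array stood apart. Against wild type it differed by 0.91 before and by 0.07 after adaptation. Adjacent to it in gene order lie ade7, a purine synthesis gene that read 12.76, 13.57 and 13.45, and stn1, a telomere gene that read 10.01, 10.18 and 10.01. At a 1.5-fold threshold mug158 and meu18 passed and no gene of the group fell, against 5.52% and 0.616% of all features at the limit.

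Smaller differences in the deletion culture ran both ways. Mug168 read 10.52, 11.03 and 10.74, a difference of 0.51 in the deletion, and mug134 (igo1) read 12.42, 12.86 and 12.49, a difference of 0.43. In both the deletion array was the highest and the adapted array lay nearer to wild type. On the low side stood mug109 at -0.52, from 10.33 to 9.81, then meu29 at -0.33, mug58 at -0.27, meu34 at -0.26, mug176 at -0.22 and mug69 (snd2) at -0.19. Over the 39 genes 14 differences were above 0 (35.9%, against 38.9% of all features at the limit), 21 below and 4 equal to 0. Their median was -0.024, against -0.0066 for all features at the limit.

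In the adapted culture no gene of the group rose or fell against wild type, among 39 at the limit on either array, where 1.48% of 3588 features rose and 0.223% fell. Among these 39 the largest difference was that of mug191, which read 9.65, 9.78 and 10.16, a difference of 0.52. Mug35 followed with readings of 9.86, 10.16 and 10.29 (0.43), and mug99 (now mmc1) with 9.84, 10.18 and 10.20 (0.36). In these 3 genes wild type was lowest and the adapted culture highest. Mug109 (-0.33), mug94 (-0.29), mug121 (-0.22) and mug151 (-0.20) were the lowest against wild type. No gene of the group passed at 1.5-fold either, against 3.62% and 0.418% of all features at the limit. Of the 39 differences 26 were above 0 (66.7%, against 51.9% of all features at the limit). Their median was 0.056, against 0.0064 for all features at the limit. This comparison and the one before share the wild-type array.

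Between the adapted and the unadapted deletion culture no gene of the group passed, among 41 at the limit, where 0.194% of 3609 features rose and 0.471% fell. Meu18 had the largest difference, -0.83, followed by mug158 at -0.46, mug94 at -0.38, mug134 (igo1) at -0.36, mug168 at -0.29 and mug170 at -0.28. The same deletion array enters this comparison and that of the deletion with wild type. On the high side were mug191 at 0.38, mug58 at 0.29, mug162 at 0.23, mug160 at 0.22, mug154 (nur1) at 0.21 and mug164 (mmb1) at 0.20. At 1.5-fold 1 gene fell, meu18, against 1.52% of all features at the limit, and none rose, against 0.665%. The median over the 41 was 0.094, and that of all features at the limit 0.017.

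**Figure D3:**
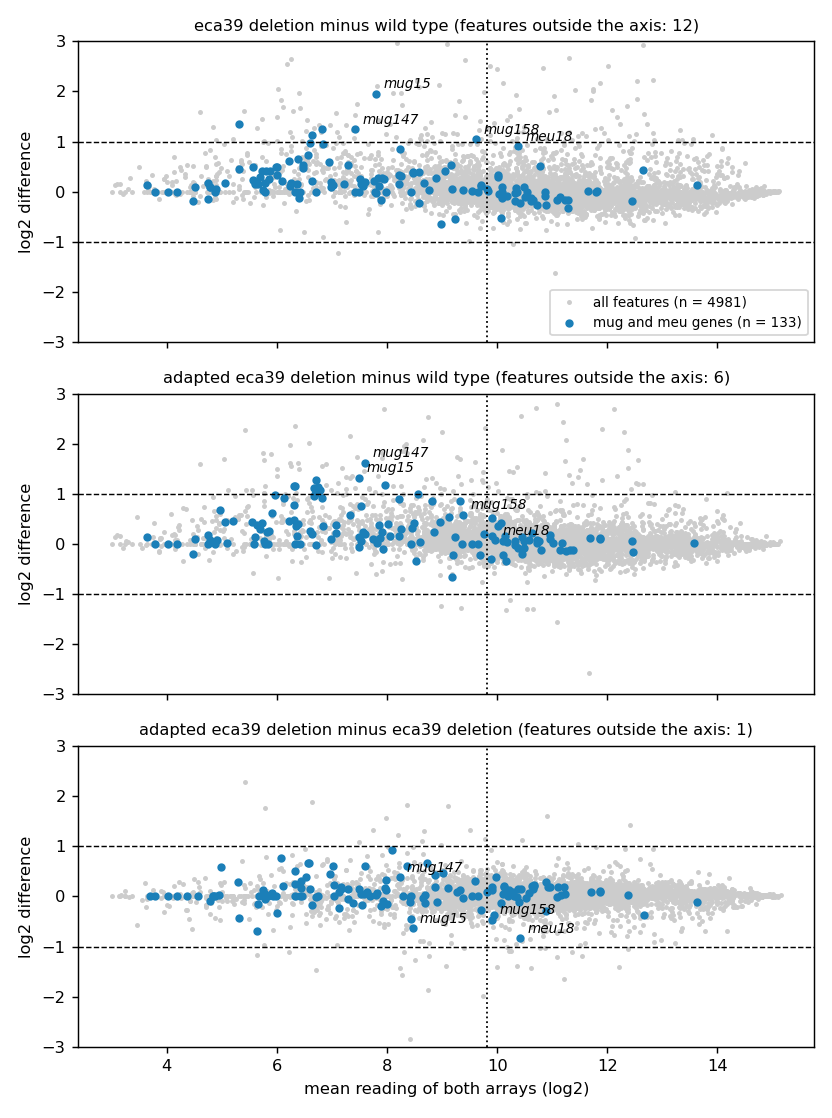
Log2 difference between 2 cultures against the mean log2 reading of both, in 1 panel for each pair, with all features in grey and the 133 mug and meu genes in blue. Dashed lines mark a 2-fold difference and the dotted line the 30th percentile of all values, and axes end at 3 and -3. The blue points above the upper dashed line lie to the left of the dotted line, in the range of dim readings, and the mean of mug158 also falls there although its deletion reading is above it.

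Below the limit, several genes read at least 2-fold higher in the mutant cultures. In the deletion culture these were 5 of 94 genes with both readings below the limit (5.32%), against 4.67% of 1412 features, and in the adapted culture 9 of 94 (9.57%), against 5.1% of 1393 features. No gene of the group was 2-fold lower, as were 0.0708% and 0.0718% of such features. A narrower set held the genes and features whose mean over the arrays was below the 10th percentile. In it the shares lay closer together for the adapted culture but not for the deletion culture. There 5 of 68 genes (7.35%) were 2-fold higher in the deletion culture, against 8.96% of 491 features. In the adapted culture 9 of the 68 (13.2%) were, against 10.6% of these features. Against the unadapted deletion culture, none of 92 genes in the adapted culture was 2-fold higher or lower, where 0.802% of 1372 features were higher and 0.802% lower. Of the genes 2-fold above wild type, only mug15, mug147 and mug125 reached the 10th percentile on any array. Because all these readings lie below the brightness limit, they are given as log2 differences and do not count as rises.

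The largest of these differences was that of mug15, which read 6.83, 8.78 and 8.15. Its differences from wild type were 1.96 and 1.32, and the deletion array was the highest. For mug147 the order of the mutants was the opposite, with 6.80, 8.04 and 8.42, differences of 1.24 and 1.62. Meu14, whose product sits at the leading edge of the forming spore membrane, read 6.08, 7.21 and 7.36, differences of 1.13 and 1.28. Mug8 read 6.19, 7.45 and 7.32, differences of 1.26 and 1.14. In these 4 genes both mutant readings were above that of wild type by more than 1.

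Other dim genes passed 2-fold against wild type in 1 mutant culture. Meu10, a spore wall gene, read 4.63, 5.99 and 5.31 and was 2-fold higher in the deletion culture (1.36), with 0.68 in the adapted one. Mug20, a gene of the linear elements that meiotic chromosomes form in place of a synaptonemal complex, read 5.74, 6.22 and 6.90 and was 2-fold higher in the adapted culture (1.16). Mug103 read 5.74, 6.24 and 6.91 (1.17), mug125 read 7.38, 7.64 and 8.56 (1.18), mug180 (now say1) read 6.12, 7.09 and 7.24 (1.12) and mug146 read 6.25, 6.72 and 7.33 (1.09), the value in brackets being the difference of the adapted culture. In mug20, mug103, mug125 and mug146 the deletion reading lay nearer to wild type than to the adapted reading. Between the mutant cultures, though, mug125 differed most of these, at 0.93, and none passed 2-fold.

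**Figure D4:**
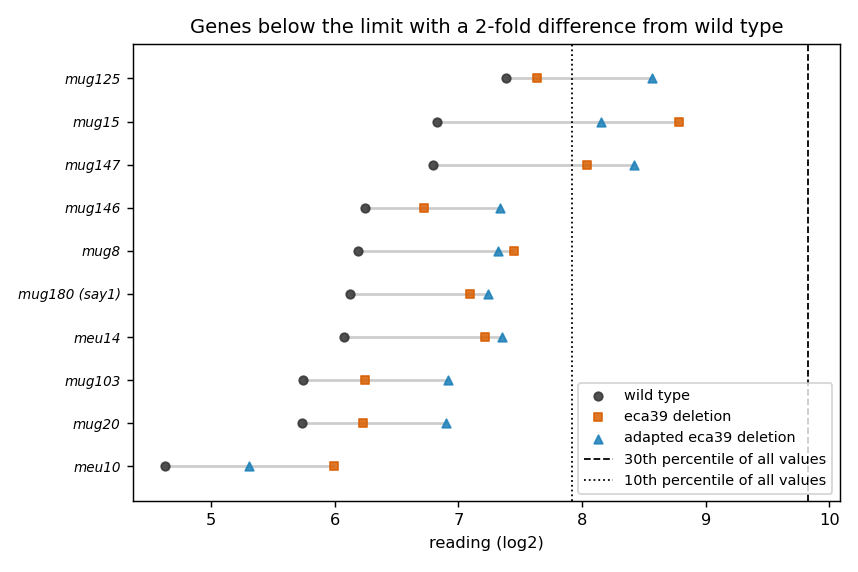
Readings (log2) of the 10 mug and meu genes that stay below the 30th percentile of all values (dashed line) and read at least 2-fold higher than wild type in 1 or both mutant cultures, with 1 point for each culture. Wild type is the leftmost point in every row, and the dotted line is the 10th percentile of all values, which the genes mug15, mug147 and mug125 alone cross.

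These dim differences moved with the scaling of the arrays. Dim features as a whole read lower on the wild-type array: among features whose mean lay below the 10th percentile the deletion culture had a median difference of 0.18 and the adapted culture one of 0.22, and for the 68 mug and meu genes in that range the medians were 0.18 and 0.26. Of the group's genes below the limit 72 of 94 (76.6%) were above 0 in the deletion culture and 73 of 94 (77.7%) in the adapted one, against 63.5% and 66.9% of all features below it. With a mean below the 10th percentile the shares were 77.9% and 80.9% of the group's genes, against 70.7% and 70.9% of features. The medians of 0.17 and 0.24 of the group's genes below the limit turned to -0.10 and -0.10 under repeated quantile normalization. The 5 and 9 genes became 2 (mug15 at 1.60 and meu10 at 1.10) and 1 (mug147 at 1.22). With the intensity trend removed they became 4 and 3, among which mug15 (1.78 and 1.13) and mug147 (1.07 and 1.43) passed in both.

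Genes of the meiotic programme with other platform symbols were set beside the group. Some of them have a mug or meu name as a synonym, among them 1 of the regulators, 7 of the recombination and chromosome genes and 4 of the spore formation genes listed here. Of 11 measured regulators of meiosis, ste11 and mei2 alone reached the limit, and both rose in the adapted culture. Mei2 read 9.16, 10.11 and 11.72, and ste11 read 10.62, 10.93 and 11.99. Mei4, the regulator of later meiosis, read 5.69, 6.46 and 6.55, and mei3, whose product starts meiosis in diploid cells, read 4.54, 5.23 and 5.20, all below the limit. Also below the limit, ran1 (8.48, 9.62 and 9.58) read over 2-fold above wild type in both mutant cultures, by 1.14 and 1.10. Rep1 (6.43, 6.99 and 7.52) did so in the adapted culture, by 1.09. In that culture none of the 39 mug and meu genes at the limit rose, where 1.48% of 3588 features did, so this count is near the background. Below the limit 9 of 94 genes of the group read at least 2-fold higher there, as given above.

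Of 20 recombination and chromosome genes, 1 (rec14) reached the limit, so that rec14 alone could be called, and it neither rose nor fell in any comparison. Below the limit, rec10, of the linear elements, read 6.04, 7.30 and 7.59, and mcp7, the partner of meu13, read 7.40, 9.14 and 7.88. Of 15 spore formation genes 6 reached the limit and none of these 6 rose or fell. Below it, the septin gene spn5 (5.59, 7.25 and 7.20) read over 2-fold above wild type in both mutant cultures, the spore coat gene isp3 (6.20, 7.40 and 7.15) in the deletion culture and the septin gene spn6 (5.57, 5.71 and 7.58) in the adapted culture. Of the 5 measured genes for the elimination of meiotic transcripts 3 reached the limit, and none of these 3 passed either. Mmi1 itself, below the limit, read 9.26, 8.87 and 8.98, with rrp6, the exosome nuclease, at 10.27, 10.30 and 10.22. A list of 19 genes with names such as mde and mcp from meiosis screens shares 6 genes with these lists, and of the 13 others 3 reached the limit and none rose or fell. Of the 19 genes, 9 have a mug or meu name as a synonym.

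Marker genes of both mating types were read beside the labelled mating type, h-. The P-cell genes map2, for the P-factor pheromone, and map3, a pheromone receptor, were below the limit on all arrays, at 7.42, 7.37 and 7.29 and at 8.38, 8.15 and 8.22. Of the 7 M-cell genes 4 reached the limit on at least 1 array, and in wild type mfm2 (12.31) alone did. Mam1 reached it in both mutant cultures, and mam3 and mfm3 in the adapted culture only. In wild type mfm1 (6.59), mfm3 (7.47) and mam2 (8.28) read below map3, so these readings do not by themselves settle the mating type. In the adapted culture 6 of the 7 M-cell genes read above wild type, as did 56.1% of all features. The median difference of the 7 was 0.98, against 0.027 for all features. The pheromone gene mfm3 rose, from 7.47 to 10.01, mfm1 (2.69) and mam2 (1.21) were over 2-fold higher below the limit, and mfm2 stood at 0.98. The eca39 readings were 14.60, 6.12 and 6.37. Meu6 is separated from eca39 by 5 protein-coding genes in the gene order of ASM294v3, and meu6 read 6.46, 6.34 and 6.73, below the limit throughout.

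Genes of the group are spread over all chromosomes, with 65 on chromosome I, 37 on II and 31 on III, and 6 pairs lie next to each other in the order of protein-coding genes. In some pairs the neighbours lay on different sides of the limit. Mug177 read 5.54, 5.84 and 5.84 beside mug58 at 11.02, 10.74 and 11.03. Mug66 (atg101), mug105 (a deubiquitinase gene) and meu29 form a row in which mug66 is dim while mug105 (11.37, 11.21 and 11.26) and meu29 (11.44, 11.12 and 11.32) are above the limit. In contrast mug163 and mug55 (fzr3) are both dim, at 5.72, 5.98 and 5.98 and at 4.03 on each array. The median gene length was 1592 bases in the group and 1894 bases in other named genes, and within the group it was 1702 bases for the 41 genes at the limit and 1523 bases for the rest.

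Many genes once named mug or meu now go by another symbol on the platform. The gene table lists 207 genes with such a symbol or synonym, mug14 left out, and 199 of these were measured. With the 66 further genes 65 of 199 reached the limit, against 73% of all features. In all 3 comparisons the genes that rose or fell stayed at mug158 in the deletion culture alone. Of all features at the limit 2.3% rose and 0.0841% fell in the deletion culture against wild type. In the adapted culture 1.48% rose and 0.223% fell against wild type, and 0.194% and 0.471% against the deletion culture.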

How the data were processed

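The deposited log2 values come from the authors' use of RMA and affy, which the submitters' processing notes name. The base was taken as 2 from the range of the values, 2.99 to 15.17. Versions and a genome build for the array are not stated there. RMA sets arrays to a common distribution and summarises probes by median polish, so a shift of most transcripts would not be seen. Symbols were those of the possibly outdated platform annotation, with present names from the ASM294v3 gene table, used for names, lengths and gene order. Probe sets of a shared gene were averaged. Differences, percentiles and counts were computed with Python 3.11.15, numpy 2.4.6 and pandas 2.3.3, and the trend with lowess (fraction 0.3) in statsmodels 0.14.6. The members, lists and rules were chosen with earlier results of these data known. Named genes are those that pass, the 6 largest differences in each direction at the limit, up to 8 dim genes 2-fold apart per comparison, those at the ends of the scale or next to a threshold, members with known roles and up to 4 genes of each related list. With mug146, the 9th dim gene of the adapted culture, and some further members with known roles, names outside that rule were chosen after their values were seen. Each group had 1 array, whose number limits the precision.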

Additional observations from a re-analysis of the deposited data

How the results depend on the processing

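No paired analysis was possible because each group had 1 array and no test was run. The 41 genes at the limit became 71 with the limit at the 10th percentile, 20 at the 50th and 65 with present symbols and synonyms, the last chosen after seeing the data. The 1 gene that rose in the deletion culture became 3 with the limit at the 10th percentile, 6 without a limit, 2 at 1.5-fold, and 0 at 3-fold, with the limit at the 50th percentile and under repeated quantile normalization, where mug158 stood at 0.93. For the adapted culture against wild type the count of 0 that rose became 3 with the limit at the 10th percentile and 9 without a limit, and against the deletion culture the count of 0 that fell became 1 at 1.5-fold. When no limit was set, 4.51% of the 133 genes were 2-fold above wild type in the deletion culture, against 2.97% of 4981 features. In the adapted culture 6.77% of the genes were, against 2.49% of features. The group is dimmer than the array as a whole, so these shares do not compare genes of equal brightness. For the lower limit no share of all features was computed. The median of the 41 genes changed sign for the adapted culture against wild type under repeated quantile normalization, from 0.056 to -0.016, and that of the deletion culture from -0.013 to 0.12 when all 133 genes were taken. Below the limit the medians of 0.17 and 0.24 in the deletion and the adapted culture became -0.10 and -0.10 under that normalization and 0.027 and 0.074 with the intensity trend removed, both chosen after seeing the data. The same normalization moved the median of all features from 0 to -0.052 in the deletion culture and from 0.027 to -0.036 in the adapted culture. The cause was not tested. Leaving out probe sets with the suffixes _s_at or _x_at says nothing about these genes, since 0 of the 133 have such a probe set.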
